A study of Homo sapiens with 8 samples.

Results

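Windows of open chromatin that were higher in every AIRE-induced library than in every library without induction are described here. FAIRE-seq counts had been deposited for 256141 overlapping windows of 150 bp on the human hg19 build, starting every 50 bp, in 8 libraries. Each count was divided by its library's column total and is given per 1000000 counts of that total (CPM). A window was called gained where the lowest of the 4 AIRE-induced libraries exceeded the highest of the 4 other libraries by more than 25%. By this rule 2841 of the 256141 windows were gained (1.11%), and with the arms exchanged 8147 windows (3.18%) were lost. The members were thus chosen by their own levels with and without induction, so those levels are given as a description and without a test.

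The cells were AIRE-Tet cells, a Tet-On Advanced HEK293 line of human embryonic kidney origin in which doxycycline switches on a human AIRE transgene. The induced arm held 2 DoxEtop libraries, from cells given 1.5 µM doxycycline for 24 h and then 2 µM etoposide for 24 h. It also held 2 Dox libraries, from cells given 1.5 µM doxycycline alone. How long the Dox cells had doxycycline is not given here, so DoxEtop and Dox may also differ in time of induction. The arm without induction held 2 Etop libraries, from cells given etoposide alone, and 2 Control libraries, from untreated cells. The labels call the 2 libraries of each group independent biological replicates, and all come from this 1 line. Doxycycline in cells without the transgene was not analysed here, so the drug and AIRE itself cannot be told apart. A window's level is an average over many cells, so a site open in more cells and a site more open in each cell cannot be told apart either.

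In FAIRE-seq, formaldehyde-fixed chromatin is extracted with phenol and chloroform, and the DNA left in the water layer is sequenced. This fraction is enriched for DNA with few nucleosomes, such as active promoters and enhancers. AIRE, the autoimmune regulator, is best known from medullary epithelial cells of the thymus, where it turns on genes that otherwise belong to single tissues and so helps to remove self-reactive T cells. It has no strong sequence preference of its own and works with partners that include DNA topoisomerases and factors of the DNA break response. Etoposide traps topoisomerase II on DNA and leaves breaks. The design therefore asks whether AIRE, DNA breaks or both go with a change in chromatin openness.

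The column totals were 4489871 to 5305079 counts in the induced libraries and 4568818 to 8275911 in the others, and they are sums over overlapping windows, not library depths. Every deposited window held at least 111 counts over the 8 libraries. The uninduced libraries carried more of the counts (26766111 against 19999382 in the induced libraries). How the windows were chosen is not given in the sources used here. If summed counts decided it, a window high without induction passed more readily than a window equally high with it. The windows carry no gene names and no annotation of hg19 was used here, so each region is identified by its hg19 position. Windows separated by 100 bp or less were merged into 35741 regions.

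The differences at gained windows were modest. Their median level was 4.90 and 4.77 CPM in DoxEtop replicates 1 and 2 and 4.45 and 4.68 CPM in Dox, against 2.10 and 2.41 CPM in Etop and 2.42 and 2.21 CPM in Control. In counts this was a median of 21 to 26 per window in an induced library and 11 to 20 in an uninduced one. The median over all windows was 3.48 to 3.58 CPM in every library, so gained windows lay above the typical window in the induced libraries and below it in the others. Their mean level with induction was a median of 2.11-fold that without (log2 1.08, quartiles 0.92 to 1.26, highest 2.11). Together they took up 1.44 ± 0.0477% of the counts in the induced libraries and 0.691 ± 0.0596% in the uninduced ones (SD, n = 4 each).

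**Figure D1:**
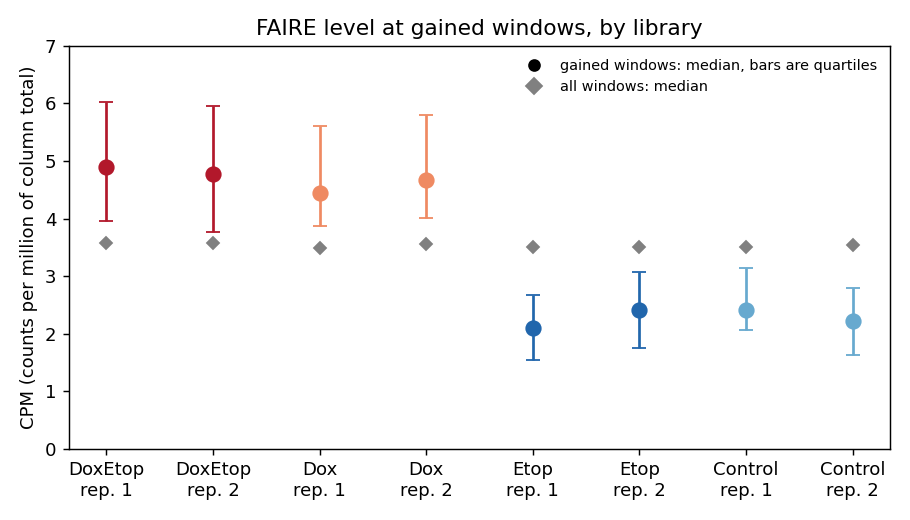
Level in CPM (on column totals) at the 2841 gained windows in each of the 8 libraries, with circles for the median and bars for the quartiles, and grey diamonds for the median of all windows. The 4 induced libraries have medians of 4.45 to 4.90 CPM and the 4 others 2.10 to 2.42 CPM, an order that the choice of windows fixes.

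Losses were deeper. The windows lost with the arms exchanged had a median log2 difference of -1.60, a median of 3.03-fold lower with induction. An induced library was at 0 in 418 of the 8147 lost windows, while an uninduced library was at 0 in 5 of the 2841 gained windows. These 2 numbers are not like for like. The induced libraries held fewer counts in sum, and a minimum on summed counts, if used, passed windows high without induction more readily. The part of either in the deeper losses was not tested. The gap between the arms differed too: 30 gained and 1298 lost windows passed a factor of 2, 628 and 4072 passed a factor of 1.5, and 14088 and 18235 passed with no factor at all. Gains and losses were thus close in number where any separation counted, and parted as more was asked of a window.

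**Figure D2:**
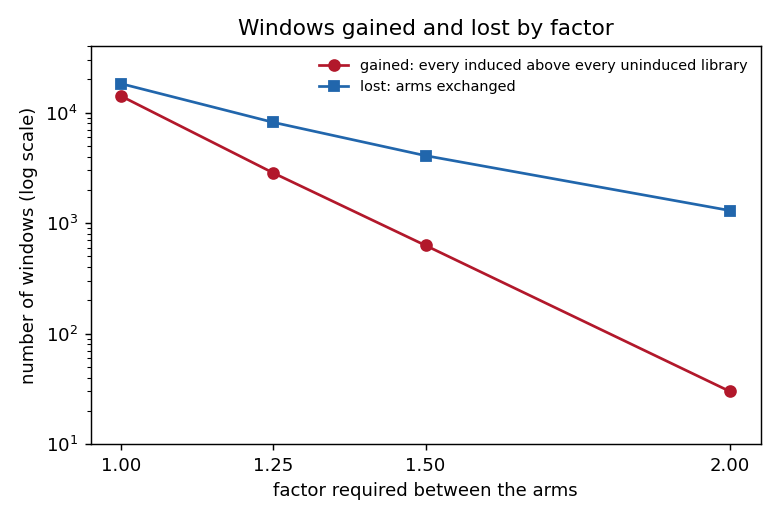
Number of windows (log scale) in which all induced libraries exceeded all uninduced libraries (gained) or the reverse (lost), by the factor required between them. The 2 lines are closest at a factor of 1, with 14088 and 18235 windows, and farthest apart at 2, with 30 and 1298.

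At the threshold the separation was small on both sides of it. Just inside it, windows starting at 138277051 on chromosome X, 151584851 on chromosome 1 and 2659451 on chromosome 17 had 3.68, 4.12 and 3.49 CPM with induction and 1.73, 1.70 and 2.09 CPM without. Just outside it, windows starting at 150803251 on chromosome 3, 78449851 on chromosome 17 and 90225651 on chromosome 7 had 4.30, 4.64 and 4.23 CPM with induction and 2.19, 2.70 and 2.36 CPM without. The ratio of these means was 2.13, 2.42 and 1.67 just inside and 1.96, 1.72 and 1.79 just outside, so the 2 sets overlapped.

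Single libraries set the rule unevenly. Control replicate 1 was the highest uninduced library at 39.1% of gained windows, against 17.8% to 25.1% for each of the other 3. It was the highest uninduced library at 24.5% of all windows. Among the induced libraries, Dox replicate 1 was the lowest at 31.1% of gained windows and DoxEtop replicate 1 at 18.7%. Leaving any library out can add windows but remove none: the number of gained windows was 7740 without Control replicate 1 and 5980 without Dox replicate 1, and 4172 to 5745 without each of the other 6.

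Most regions with a gained window held a single one. The gained windows lay in 1757 of the 35741 regions (4.92%), with 1 gained window in 1109 of them, exactly 2 in 395 and 3 or more in 253. Joined where they touched, they covered 334900 bp. The longest unbroken run was 8 windows (500 bp), and 1438 of the 1991 runs were a single window. In 49 regions every window was gained, and 29 of these regions had just 1 window. In the median region with a gained window, 11.1% of its windows were gained.

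The region with the most gained windows was on chromosome 19 from 40696251 to 40698650, with 11 of its 39 windows gained between 40696851 and 40698500. Averaged over the gained windows, the level was 7.44 and 9.10 CPM in DoxEtop and 7.74 and 9.60 CPM in Dox, against 3.82 and 4.56 CPM in Etop and 5.04 and 4.41 CPM in Control. The gained windows fell on several peaks of this wide region, and its average over all windows was 7.08 ± 1.34 CPM with induction and 4.47 ± 0.303 CPM without (SD, n = 4 each).

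Chromosome 12 held the next 2 regions. From 121974751 to 121976200, 9 of 24 windows were gained, on both sides of its middle, where DoxEtop replicate 2 was as low as the uninduced libraries. Their level was 5.80 and 4.86 CPM in DoxEtop and 3.95 and 4.75 CPM in Dox, against 1.48 and 2.12 CPM in Etop and 1.85 and 1.24 CPM in Control, a 2.89-fold difference in means. From 110318101 to 110318650, 8 of the 9 windows were gained, so almost the whole of a single narrow peak was higher with induction. There the gained windows had 5.63 and 6.85 CPM in DoxEtop and 6.02 and 6.79 CPM in Dox, against 2.77 and 2.38 CPM in Etop and 3.17 and 2.27 CPM in Control.

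On chromosome 17, 8 of the 34 windows of the region from 4268451 to 4270250 were gained. They had 5.80 and 4.44 CPM in DoxEtop and 4.79 and 4.90 CPM in Dox, against 2.35 and 2.22 CPM in Etop and 1.96 and 1.62 CPM in Control. The gained windows lay in the trough between the peaks at the ends of this region and on the flank of the right one, and at the left peak the libraries of both arms ran together. The other 6 of the 10 regions described had 6 gained windows each. Further regions also had 6, and these were taken for the higher mean level of their gained windows. They lay on chromosomes 19, 10, 19, 2, 6 and 9. Their gained windows averaged 5.39 to 6.68 CPM with induction and 2.48 to 3.18 CPM without, 1.81- to 2.50-fold.

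**Figure D3:**
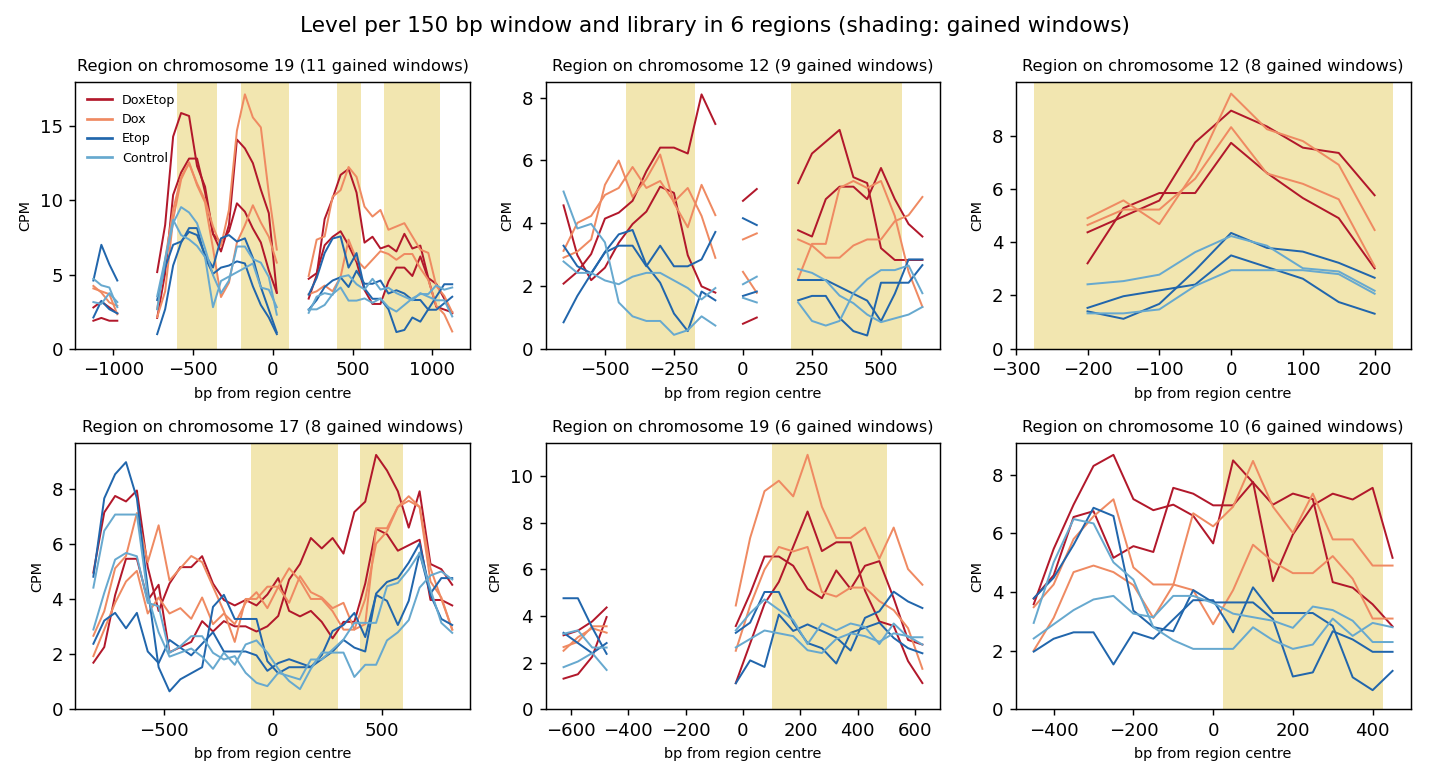
CPM of each 150 bp window against its distance in bp from the region's centre, 1 line per library, in the first 6 of the 10 regions described (gained windows shaded; broken lines mark missing windows). The peak on chromosome 12 with 8 gained windows is higher in all 4 induced libraries over almost its whole width, whereas in the region on chromosome 17 the arms part between the end peaks.

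In the widest of these 10, from 33684451 to 33687600 on chromosome 19, the gain was local. Its 6 gained windows, from 33685001 to 33685400, had 4.75 to 7.81 CPM in the induced libraries and 2.23 to 2.63 CPM in the others, with means of 6.29 ± 1.27 CPM and 2.51 ± 0.192 CPM (SD, n = 4 each). Over all 54 windows the region averaged 4.35 ± 0.329 CPM with induction and 3.87 ± 0.505 CPM without (SD, n = 4 each), and the arms overlapped.

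The widest gap between the arms was at a region of 1 window on chromosome 1, from 228338551 to 228338700. It had 23 and 21 counts in DoxEtop and 22 and 18 in Dox, against 9 and 7 in Etop and 9 and 8 in Control. As levels these were 4.34 and 4.17 CPM in DoxEtop and 4.26 and 4.01 CPM in Dox, against 1.26 and 1.53 CPM in Etop and 1.09 and 1.18 CPM in Control, so the lowest induced library was 2.62-fold the highest uninduced one. The 4 libraries of each arm were close together here, and each level rests on few counts.

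Next came a window starting at 232575101 on chromosome 2, in the region from 232574851 to 232575350 with 4 of 8 windows gained. It had 6.03 and 5.36 CPM in DoxEtop and 6.19 and 4.90 CPM in Dox, against 1.68 and 0.876 CPM in Etop and 1.93 and 1.33 CPM in Control. A window starting at 144853901 on chromosome 8, in a region of 2 windows that were both gained, had 4.34 and 3.97 CPM in DoxEtop and 5.42 and 3.79 CPM in Dox, against 1.54 and 1.09 CPM in Etop and 0.967 and 1.18 CPM in Control. A window starting at 129622551 on chromosome 9 lay in a region of 4 windows (129622551 to 129622850) that were all gained. At these 3 windows the lowest induced library was 2.53-, 2.46- and 2.43-fold the highest uninduced one. The other 6 of the 10 widest gaps, at 2.15- to 2.33-fold, were on chromosomes 11, 9, 1, 5, 17 and 10, with mean levels of 4.11 to 5.78 CPM with induction and 1.26 to 1.88 CPM without.

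Strong windows were gained too, by less. The gained window of highest level started at 36545701 on chromosome 19, in the region from 36544801 to 36546450. It held 902 counts over the 8 libraries. It had 22.4 and 29.8 CPM in DoxEtop and 23.4 and 24.3 CPM in Dox, against 17.4 and 14.7 CPM in Etop and 15.6 and 12.2 CPM in Control, 1.67-fold higher in the means. Of the 31 windows of this region 1 was gained and 1 was lost, and the region averaged 11.8 ± 0.400 CPM with induction and 10.96 ± 0.678 CPM without. The region 250 bp farther on, from 36546701 to 36547450, had no gained window and 1 lost window. It averaged 2.25 ± 0.292 CPM with induction and 5.18 ± 2.40 CPM without (SD, n = 4 each). The arms overlapped there, with 2.28 CPM in Control replicate 1 against 2.43 and 2.54 CPM in DoxEtop. The other 4 of the 5 strongest gained windows, on chromosomes 15 and 19, were 1.57- to 1.84-fold higher with induction.

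Neighbours of gained windows were read next. Windows that shared bases with a gained window count the same fragments in part and had a median log2 difference of 0.75. At 150 to 300 bp the median was 0.35, at 350 to 600 bp 0.18 and beyond 600 bp in the same region 0.07, against 0.02 in regions without a gained window. The share of windows above 0 was 78.2%, 63.9% and 54.4% over these 3 distances, against 51.4% in regions without a gained window. The difference was thus smaller at each greater distance. Fragments longer than the distance can still join such windows, and their part in this decline was not tested. Taken whole, 819 of the 1757 regions with a gained window (46.6%) had every induced library above every uninduced one, against 5.36% of all regions. These averages include the gained windows, so the count in part restates the rule.

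Gained and lost windows lay at different places in their regions. In regions of at least 7 windows, 7.94% of 2318 gained windows were the outermost window at a region's end, against 11.4% of the other windows of the same regions. Of 4647 lost windows 23.1% were outermost, against 10.6% of the other windows of their regions. Similarly, 42.2% of gained windows were nearer to an end than to the middle, against 53.3% of their neighbours, while lost windows had 60.8% against 50.9%. Of the gained windows 6.69% were the strongest window of their region, against 5.44% of their neighbours. Region ends are set by which windows the table holds. A further selection, made after seeing the data for this question, formed regions again from the 204006 windows whose summed count passed a higher minimum whichever arm the counts were assigned to. There 9.89% of gained windows were outermost, against 12.4% of their neighbours, and 23.3% of lost windows were, against 11.1%.

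In 131 of the 1757 regions with a gained window both kinds occurred, with 226 gained and 267 lost windows. This was a smaller share than the 10.4% of all regions that held a lost window (3720 of 35741). The comparison is not matched. Regions with a gained window were wider, at a median of 850 bp against 350 bp over all regions, and their gained windows cannot be lost. The part of either in the smaller share was not tested. The nearest gained and lost windows in the 131 regions started a median of 500 bp apart. The lost windows lay farther from the centre in 96 of the 131 regions. The regions below are examples, and the rule fixes the direction of their gained and lost windows. One on chromosome 6 ran from 43138201 to 43140600. In it 3 windows from 43139101 to 43139350 averaged 5.75 ± 1.09 CPM with induction and 2.80 ± 0.474 CPM without. Directly before them, 6 windows from 43138551 to 43139000 averaged 2.90 ± 0.742 CPM with induction and 7.81 ± 2.54 CPM without (SD, n = 4 each). These stretches, opposite in direction by the choice of windows, lay 100 bp apart. Another, on chromosome 19, ran from 36265601 to 36267500. Its 5 gained windows (36266601 to 36266950) had 9.14 ± 0.745 CPM with induction and 4.72 ± 1.01 CPM without, while 3 lost windows on either side of them had 1.51 ± 0.403 CPM with induction and 5.42 ± 1.52 CPM without. A region on chromosome X from 153236001 to 153238550 likewise held 3 gained windows at 10.1 ± 0.747 CPM with induction and 6.15 ± 0.123 CPM without, next to 4 lost windows at 2.25 ± 0.665 CPM with induction and 5.63 ± 0.743 CPM without.

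Wide regions were richer in gained windows. Regions no wider than 300 bp had 0.732% of their windows gained and 5.38% lost, and the next class, to 500 bp, had 0.740% gained and 3.85% lost. Between 500 and 1000 bp 1.15% were gained and 2.41% lost, between 1000 and 2000 bp 1.53% and 2.39%, and above 2000 bp 1.61% and 3.13%. Lost windows therefore outnumbered gained ones 7.34 to 1 in the narrowest class and 1.56 to 1 between 1000 and 2000 bp. The contrast in gains was smaller with loess offsets, a scaling that depends on the level, with 1.32% gained and 2.49% lost in the narrowest class and 1.49% gained and 2.13% lost between 1000 and 2000 bp. The excess of losses in narrow regions was thus much smaller under that scaling. With the higher minimum applied to both arms the contrast in gains was larger. Shares were then 0.489% gained and 3.65% lost in the narrowest class, and 1.42% and 2.11% between 1000 and 2000 bp. By level, the share gained was 0.941% to 1.24% in each of 5 equal bins of mean CPM, while the share lost was 4.02% in the lowest bin and 2.25% in the highest.

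Gains and losses were also spread differently over the chromosomes. Chromosome 19, which carries large clusters of zinc finger genes, held 38412 of the windows, with 313 of the gained and 1890 of the lost ones. There 0.815% of windows were gained, the lowest share of the 23 chromosomes compared, and 4.92% were lost, the highest. Its gained share stayed at 0.695% to 0.859%, against 0.971% to 1.23% of all windows, under other settings. These were TMM totals, DESeq2 size factors, loess offsets, the higher minimum applied to both arms (described above) and a minimum mean level. Its rank among the chromosomes was not computed under them. Chromosome 21 had the highest gained share, 1.89% of its 3334 windows, in 29 of its 438 regions. On chromosomes 4 and 8 gained windows outnumbered lost ones (43 against 36, and 43 against 38), and on chromosome 9 they nearly did (90 against 105). Chromosomes 12, 2, 16 and 9 followed chromosome 21 with 1.31% to 1.36% gained. Windows of 1 region share fragments, so these shares are descriptions and were not tested. By regions, 3.42% of those on chromosome 19 held a gained window, against 4.92% of all regions. On chromosome 21 the share of regions was 6.62%, close to 6.47% on chromosome 18 and 6.46% on chromosome 2.

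**Figure D4:**
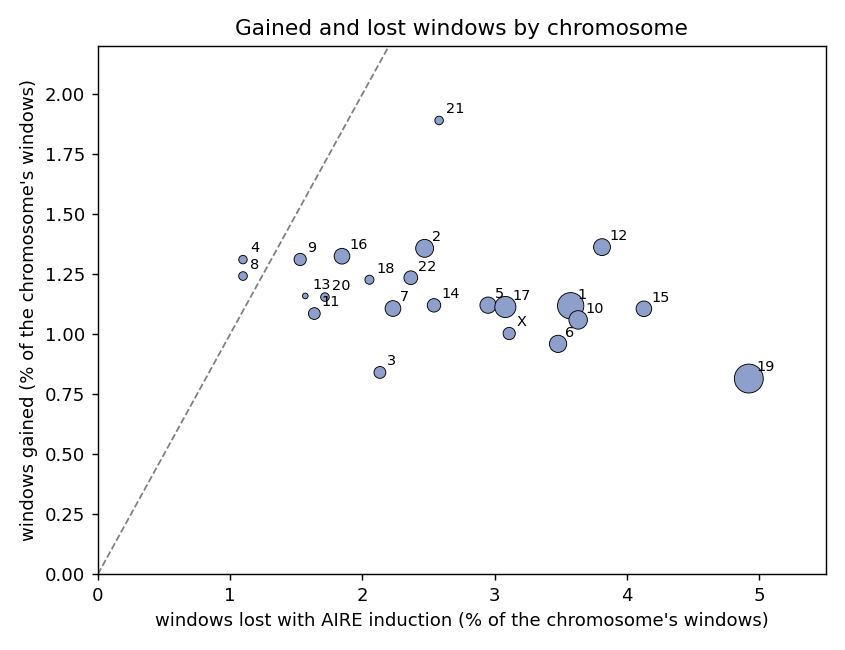
Percent of each chromosome's windows that were gained against the percent lost, with dot area in proportion to the number of windows and a dashed line where both are equal. Chromosome 19 lies at the lower right (0.815% gained, 4.92% lost), chromosome 21 highest (1.89% gained), and chromosomes 4 and 8 above the line.

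How far gains recur in libraries that took no part in choosing them was read across the 2 etoposide states, which share no library. With the same rule, Dox exceeded Control at 25144 windows (9.82%), and 22.2% of these were also gained between DoxEtop and Etop, where 12.2% of all windows were. In the other direction, DoxEtop exceeded Etop at 31246 windows, and 17.8% of them were gained between Dox and Control, where 9.82% of all windows were. The 5572 shared windows were thus above the background share each way. Opposite calls were below it: 2.00% of the windows gained without etoposide were lost with it, against 13.2% of all windows. With 1 window per region, 18.7% of 2928 windows gained without etoposide were gained with it, against 9.85% of all such windows. Windows lost without etoposide recurred more often, at 42.2% of 27894 against 13.2% of all windows.

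Read as levels, windows gained without etoposide had a median log2 of DoxEtop over Etop of 0.42, and 77.0% of them were above 0, against a median of 0.05 and 52.5% over all windows. Windows gained with etoposide had a median log2 of Dox over Control of 0.36, and 77.9% were above 0, against 0.05 and 53.1% over all windows. Windows lost without etoposide had a median of -0.80 in the etoposide-treated cells. The 2841 gained windows, which were chosen on all 8 libraries, had medians of 1.14 for DoxEtop over Etop and 0.99 for Dox over Control. These last medians are fixed by the rule and belong to another set of windows.

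**Figure D5:**
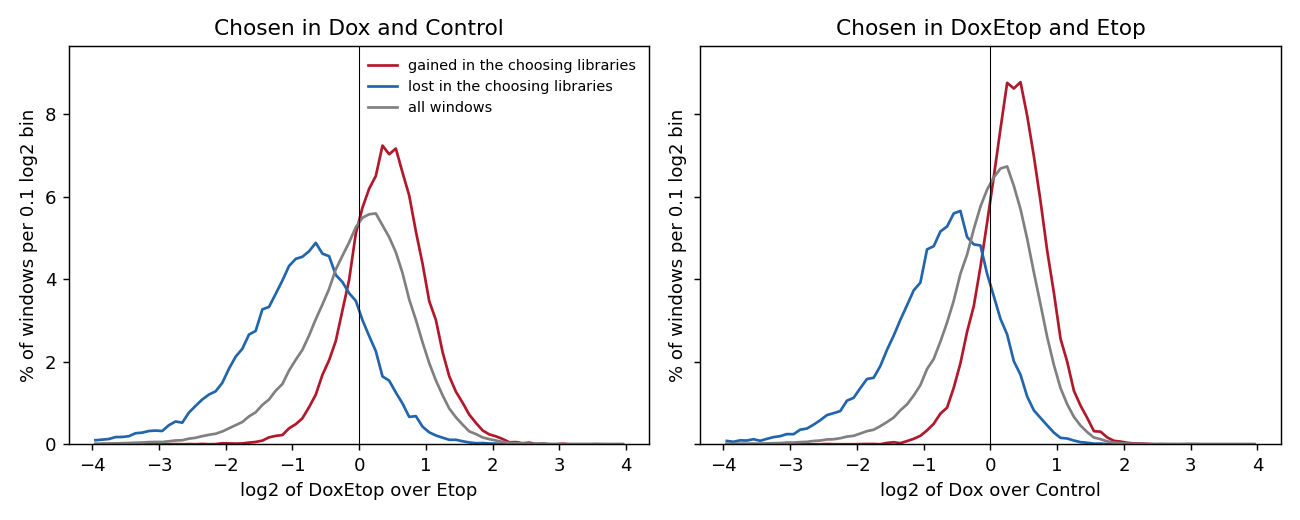
Distribution of the log2 ratio in 1 etoposide state (percent of windows per bin of 0.1) for windows gained or lost by more than 25% in the other state, and for all windows. Left, windows chosen in Dox and Control and read as DoxEtop over Etop; right, the reverse. The gained windows peak to the right of all windows (medians of 0.42 and 0.36, against 0.05 over all windows in both), and the lost ones lie farther to the left.

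Etoposide was compared with edgeR's quasi-likelihood F test over all windows, with Benjamini-Hochberg adjustment at 0.05. The rule takes the lowest induced and the highest uninduced library, so it drops windows in which etoposide shifts an arm. The values below are therefore a description of the chosen windows, and their few small p-values are no evidence that etoposide left them unchanged. No gained window was called in DoxEtop vs Dox, in Etop vs Control, in the main effect of etoposide or in the interaction with AIRE induction, and 0% of all windows were called in each. DESeq2 called 0 gained windows in each as well, and 3 of all windows for the main effect of etoposide. At an unadjusted p under 0.05 by edgeR there were 9, 45, 20 and 19 gained windows in that order, or 0.317%, 1.58%, 0.704% and 0.669% of them, against 4.26%, 5.57%, 5.83% and 4.14% of all windows. The median log2 fold change of the gained windows was 0.06 for DoxEtop vs Dox and -0.08 for Etop vs Control, with quartiles of -0.11 to 0.24 and -0.37 to 0.15. These small medians rested on single libraries. For Etop vs Control the median was -0.01 without Control replicate 1, 0.01 without Etop replicate 1 and -0.18 without Control replicate 2, and for DoxEtop vs Dox it was 0.01 without DoxEtop replicate 1 and 0.12 without Dox replicate 2. The median interaction was 0.16 (0.00 over all windows), with 0.07 without Control replicate 1, 0.08 without Etop replicate 1 and 0.25 without Control replicate 2. Without Etop replicate 2, the unadjusted counts were 173 gained windows for Etop vs Control and 121 for the interaction. None of them was called, while 218 of all windows were called for Etop vs Control (22 higher and 196 lower).

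With etoposide as a further factor, the same edgeR test called 1317 of the 2841 gained windows higher in the main effect of AIRE induction, in 817 regions. Over all windows 1.27% were called higher and 6.17% lower (7.44% in all). The rule used this contrast, so the count restates the choice and nothing is read from it.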

How the data were processed

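The authors deposited raw counts per 150 bp window, 1 column per library, per the file header. Per the labels' protocols, DNA from formaldehyde-fixed cells was extracted with phenol and chloroform, and TruSeq ChIP libraries were sequenced as paired-end reads of 100 bp, 2 times each. The submitters' processing notes name hg19, Bowtie, Bowtie2 and Trim Galore. Neither the counting of fragments nor the choice of windows nor any use of input is given in the sources used here. The members, the lists and the tests were chosen with earlier results of these data known.

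Levels are CPM on the column totals, computed from the deposited counts. Gained and lost windows followed the rule given at the start. Regions that held both kinds are given as examples. Named regions are the 10 with the most gained windows (ties by the higher mean level of those windows), the 10 with the widest gap between the arms and the 5 with the highest level, the last 2 with 1 window per region, and the 3 windows just inside and just outside the factor. edgeR 4.0.16 in R 4.3.3 (glmQLFit, glmQLFTest, two-sided, TMM scaling) was fitted over all windows, with 1 mean per group or with AIRE induction and etoposide as additive factors. filterByExpr removed 0 windows, and the common biological coefficient of variation was 26.3% in the additive model. The rule and the fit were tested on simulated data. Replicates of a group differed by more than sampling noise (chi-square of 1.83 to 3.05 per degree of freedom), so each was counted as its own sample. Alternatives were the factor, the scaling (TMM, DESeq2 1.42.0 size factors, loess offsets from limma 3.58.1), selections of windows that treat the arms alike, leaving out each library, a replicate block, and DESeq2.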

Additional observations from a re-analysis of the deposited data

Results flagged for a closer look

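Among 52 sets of 4 libraries (1 arm at 1 named window or region, or the share of counts in gained windows), 4 held a library far from the other 3. By Dixon's test at the 95% level about 1 in 20 sets would by chance, if the sets were independent and not chosen by their levels. Here the windows and regions were chosen by their lowest induced and highest uninduced library, and some overlap. That rate therefore does not hold for them, and the 4 are given as a description. At the window starting at 40696851 on chromosome 19, DoxEtop replicate 2 had 15.7 CPM and the other induced libraries 12.5 to 12.8 CPM. In the gained windows of the region from 33684451 to 33687600 on chromosome 19, Etop replicate 2 had 2.23 CPM and the other uninduced libraries 2.58 to 2.63 CPM. Control replicate 2 was low at 2 windows, with 1.33 CPM at 129622551 on chromosome 9 (the others 1.68 to 1.75 CPM) and 1.62 CPM at 234350351 on chromosome 1 (the others 1.93 to 1.97 CPM). Each arm joins 2 groups of 2 libraries.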

How the results depend on the processing

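The numbers of gained and lost windows were 14088 and 18235 with a factor of 1, 628 and 4072 with 1.5, 30 and 1298 with 2, and 1757 and 3720 counted as merged regions. With a higher count minimum applied whichever way the arms are assigned they were 2140 and 5132, and with the average of the arms' mean levels at or above 4.00 CPM 846 and 1966, from 204006 and 83671 windows. Without each library in turn they were 4172 to 7740 and 9094 to 14458, since fewer libraries are fewer conditions to meet. TMM totals, DESeq2 size factors and loess offsets gave 2488, 2513 and 3154 gained windows, of which 2488, 2475 and 2346 were among the 2841, and 8663, 8403 and 6237 lost ones. Lost windows outnumbered gained ones under each of these settings. The share of windows gained without etoposide that were gained with it was 37.9%, 13.04% and 5.02% with factors of 1, 1.5 and 2 (over all windows 24.0%, 6.10% and 1.59%), 20.9% with TMM totals, 20.9% with DESeq2 size factors and 18.7% with 1 window per region. In the other direction it was 37.1%, 8.61% and 2.17% (over all windows 23.5%, 4.02% and 0.685%), 17.0% with TMM totals and 15.6% with 1 window per region. In the main effect of AIRE induction, the 1317 gained windows called were 311 of 567 with at least 200 summed counts and 392 to 1079 without each library in turn. For etoposide and the interaction, 0 gained windows were called under each alternative run, which the rule favours by keeping windows with little spread within an arm; over all windows up to 218 were called (Etop vs Control without Etop replicate 2). Replicate numbers were taken as names of libraries and not as pairs. Replicate differences correlated at -0.07 to 0.12 between groups, which does not show whether libraries of the same number were prepared together. With a replicate block 1216 gained windows were called for AIRE induction and 0 in the other tests. Of 275 values of named windows and regions under other scalings or without a library, 2 moved by more than the spread, both with loess offsets and upward, and 0 changed sign. Leaving out a library could not change a sign, since the rule puts every induced library above every uninduced one at gained windows. It could hardly move a value by more than the spread either, since the spread is the larger SD of the 2 arms' log2 levels. Dropping 1 of 4 libraries shifts a mean by less than their SD, so the values without a library show little about stability. Levels rest on a median of 11 to 26 counts per window and library, which limits how well a single gained window is measured.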

Other observations

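Some segments of 1 Mb held many regions with a gained window and few with a lost one. Over all regions 4.92% held a gained window and 10.4% a lost one. In the segment of chromosome 22 from 50000001 to 51000000, 12 of 95 regions (12.6%) held a gained window and 1 (1.05%) held a lost one. In the segment of chromosome 1 from 1000001 to 2000000, 12 of 103 regions (11.7%) held a gained window and 2 (1.94%) a lost one. At the start of chromosome 16 (1 to 1000000) 10 of 103 regions (9.71%) held a gained window and 4 (3.88%) a lost one. The segment with the most gained regions in number was on chromosome 19 from 36000001 to 37000000. It had 15 of 385 regions with a gained window (3.90%, below the share of all regions) and 83 with a lost one (21.6%). In all, 893 of the 2305 segments of 1 Mb with any window held a gained window, and 623 held both kinds. The number of segments with a lost window is not given here, so nothing is read from the 623. These segments were picked after their values were seen.

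Surroundings were compared within 5000 bp of each region. Another region with a gained window lay that near to 6.60% of them, and to 6.71% of the regions without a gained window. A region with a lost window lay that near to 11.2% of them, and to 13.4% of the regions without a gained window. Regions with a lost window had another such region that near in 18.5% of cases, against 12.7% of the regions without one.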
